A study of Mus musculus with 12 samples.

Results

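The early growth response (Egr) family was examined in mouse gastruloids grown inside hydrogels, through its 4 transcription factor genes *Egr1*, *Egr2*, *Egr3* and *Egr4* and the genes of its corepressors, *Nab1* and *Nab2*. These 6 genes were matched by symbol among the 55141 genes of the deposited count table, and each symbol had a single Ensembl identifier. The family was selected on measured values of these same libraries, namely earlier differences between gels of *Egr1* after embedding at 72 h and of *Egr2* and *Egr3* after embedding at 96 h. Differences between gels are therefore given as a description without a test, whereas differences between embedding times, which did not enter the choice, were tested. The gel and embedding-time comparisons nevertheless share libraries.

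Gastruloids are embryo models: small balls of mouse embryonic stem cells which, in culture, lengthen and lay down a head-to-tail axis. All were of 129/SVEV background, received a pulse of the Wnt agonist CHIR 99021 before embedding, and were placed in a dextran hydrogel either early (72 h) or late (96 h). The gel had a concentration of 1.0 mM in the softer and of 1.5 mM in the stiffer form. At 120 h they were released from the gel with dextranase, and the RNA of a pool of gastruloids was sequenced after poly-A selection. Each of the 4 groups held 3 libraries, described in the methods as biological replicates, with 23011791 to 27609422 counts per library. A single gene, *CT010467.1*, took 0.207% to 6.12% of a library's counts, with overlapping shares between gels at 72 h (1.04% to 2.67% in 1.0 mM, 0.223% to 6.12% in 1.5 mM) and lower shares in 1.0 mM (0.207% to 0.672%) than in 1.5 mM (0.842% to 4.21%) at 96 h, and its part in the results was not tested. Groups without a gel are not analysed here. Because whole gastruloids were sequenced, fewer cells expressing a gene and less of its RNA per cell cannot be told apart.

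Egr proteins are zinc-finger transcription factors that bind a GC-rich site. Their genes are immediate-early genes, switched on within minutes of growth factor, calcium or stress signals, in large part when ERK activates ternary complex factors that sit with SRF on CArG boxes, and their RNAs are short-lived. *Nab1* and *Nab2* encode corepressors that bind Egr proteins and limit their activity. In the embryo, *Egr2* (also known as Krox20) is best known for its role in the hindbrain and in Schwann cells, *Egr3* for muscle spindles, and *Egr4* for the germ line.

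Upstream sequences were taken from RefSeq (GRCm38.p6), in which 4 of the 6 genes had a start site listed, with 8 starts in all. *Egr1* and *Egr3* had none listed, so their upstream stretches were not searched. The windows of 250 bases before a start were searched on both strands for the CArG box, for CGTCA, the core of cyclic AMP response elements, and for GCGTGGGCG, the site bound by Egr proteins. Over all 32851 such windows, 1.47% held a CArG box, 17.8% held CGTCA and 0.536% held GCGTGGGCG. The first of the following sequences precedes the *Egr2* start at base 67537869 (chr10:67537619-67537868, plus strand), the second the *Egr4* start (chr6:85513590-85513839, minus strand) and the third the *Nab2* start (chr10:127666711-127666953, minus strand). They are shown because they set genes with lower mean levels in the stiffer gel beside a corepressor gene that did not share this difference. *Egr2* was lower without overlap only at 96 h. Capitals mark a CArG box or CGTCA on either strand.
Egr2: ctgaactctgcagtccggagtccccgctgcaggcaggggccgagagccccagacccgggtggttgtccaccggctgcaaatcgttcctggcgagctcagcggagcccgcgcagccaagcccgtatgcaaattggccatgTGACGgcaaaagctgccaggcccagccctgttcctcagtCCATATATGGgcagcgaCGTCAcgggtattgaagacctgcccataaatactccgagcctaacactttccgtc
Egr4: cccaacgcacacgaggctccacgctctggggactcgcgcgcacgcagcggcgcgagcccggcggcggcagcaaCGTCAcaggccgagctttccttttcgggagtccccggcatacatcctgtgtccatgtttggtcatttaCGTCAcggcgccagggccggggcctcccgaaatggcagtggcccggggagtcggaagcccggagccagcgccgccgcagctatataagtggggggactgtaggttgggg
Nab2: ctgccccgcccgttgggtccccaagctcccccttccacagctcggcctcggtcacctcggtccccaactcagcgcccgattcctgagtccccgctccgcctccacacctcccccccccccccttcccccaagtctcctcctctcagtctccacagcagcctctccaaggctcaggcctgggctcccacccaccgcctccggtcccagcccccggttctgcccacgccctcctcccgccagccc
The *Egr2* stretch held 1 CArG box, starting 72 bases before the start site, and 2 copies of CGTCA. The 5 listed *Egr2* starts differed: the window before base 67535499 held neither, and that before base 67537566 held a CArG box without CGTCA. The other 3 windows overlap and held the same CArG box and the same 2 copies of CGTCA. The *Egr4* stretch held no CArG box and 2 copies of CGTCA, and the *Nab2* stretch held neither. The listed *Nab2* start lies inside the annotated gene, so this absence applies to that internal start only. The *Egr2* start at base 67537869 is internal too, as the annotated gene begins at base 67535475. For *Nab1* the search found 1 copy of CGTCA and 2 copies of GCGTGGGCG, the latter in capitals in the following stretches, which lie at chr1:52500576-52500594 and chr1:52500544-52500562 on the minus strand, upstream of the RefSeq start but inside the first exon of a transcript annotated by GENCODE.
Nab1, distal: gcggcCGCCCACGCcggga
Nab1, proximal: gccgcGCGTGGGCGggagc
A match is a description of letters only, and no binding was measured.

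*Egr1* (18: 34859823 to 34864984, plus strand, mm10) was the most abundant Egr gene and was lower in the stiffer gel at both embedding times. After embedding at 72 h in 1.0 mM gels, replicates 1, 2 and 3 had 113, 68.1 and 48.9 CPM (counts scaled to library size by TMM), whereas those in 1.5 mM gels had 23.9, 14.3 and 11.0 CPM. After embedding at 96 h the libraries in 1.0 mM gels had 132, 36.6 and 41.4 CPM and those in 1.5 mM gels 21.7, 10.6 and 15.6 CPM. Every library in 1.5 mM gels was thus below every library in 1.0 mM gels of the same embedding time. The mean after embedding at 72 h was 76.7 ± 32.9 CPM (SD, n = 3) for the softer gel against 16.4 ± 6.68 CPM for the stiffer, a 4.67-fold higher level in the softer gel. At 96 h the means were 69.8 ± 53.5 and 16.0 ± 5.57 CPM, a 4.37-fold higher level. The fitted log2 difference, 1.5 mM over 1.0 mM, was -2.23 (SE 0.326) at 72 h and -2.12 (SE 0.420) at 96 h. Ordered from the most negative difference, *Egr1* stood at rank 4 of 15563 genes tested at 72 h and at rank 3 of 15861 at 96 h. The difference at 72 h entered the choice of the family, so a rank near the top was expected there from that choice. Both ranks are given as a description. A single library carried much of the mean at 96 h: without replicate 1 in 1.0 mM gels the log2 difference was -1.28.

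**Figure D1:**
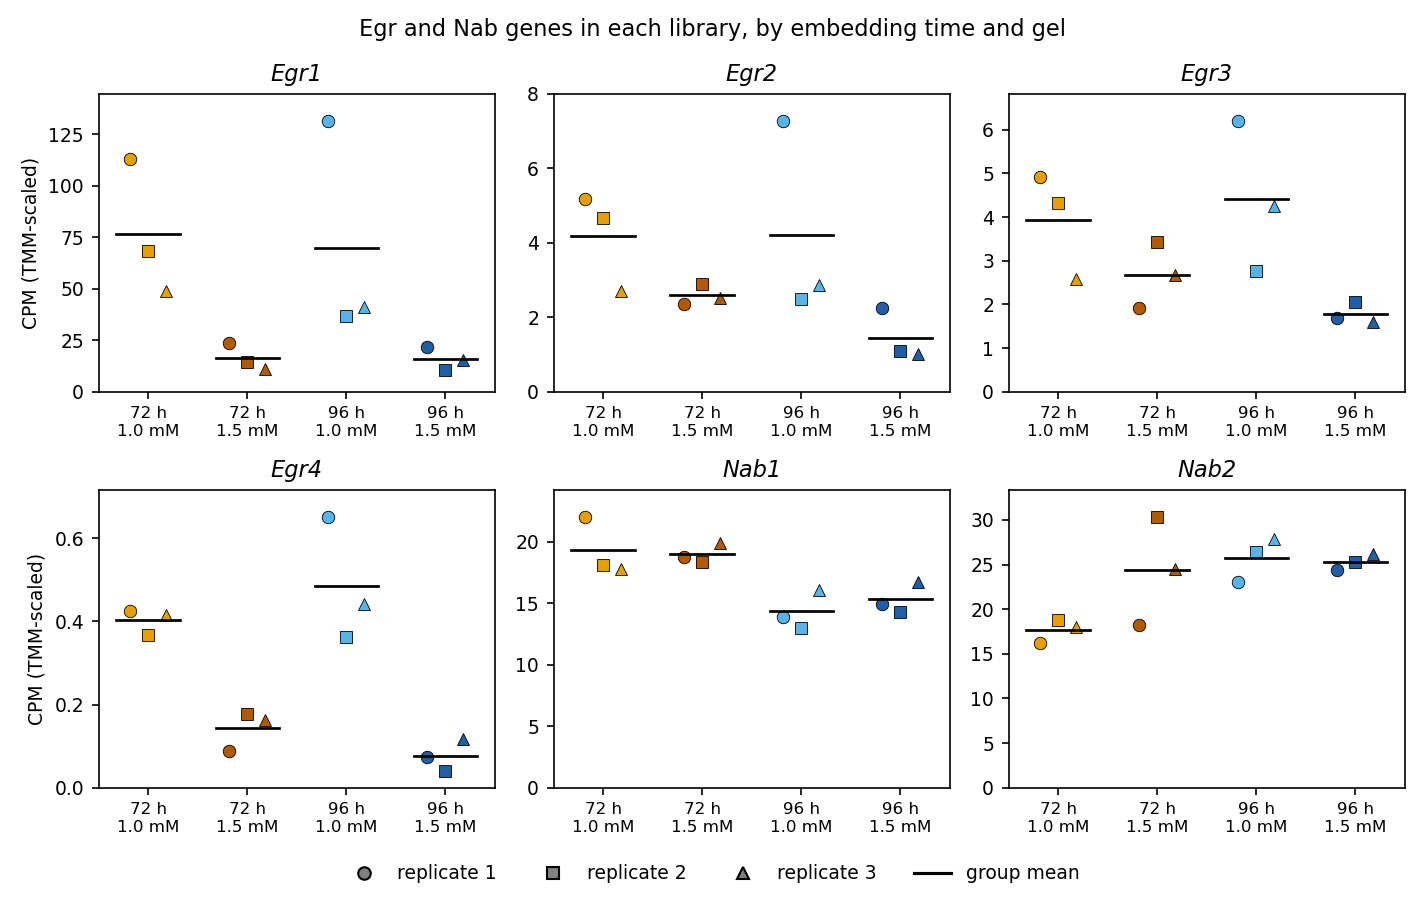
CPM of the 6 genes (vertical axes, linear, each from 0) in the 12 libraries, by embedding time and gel, with replicates 1, 2 and 3 as circles, squares and triangles and the group mean as a bar. The *Egr1* and *Egr4* libraries in 1.5 mM gels lie below all libraries in 1.0 mM gels of the same embedding time, *Nab1* separates by embedding time, and *Nab2* is lowest after embedding at 72 h in 1.0 mM gels.

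*Egr2* (10: 67535475 to 67542188, plus strand) was expressed at a far lower level and was separated by gel only after late embedding. At 72 h its libraries had 5.17, 4.66 and 2.71 CPM in 1.0 mM gels and 2.35, 2.89 and 2.51 CPM in 1.5 mM gels. At 96 h they had 7.28, 2.49 and 2.87 CPM in 1.0 mM gels and 2.25, 1.08 and 1.01 CPM in 1.5 mM gels. The gels overlapped at 72 h, since the lowest library in 1.0 mM gels was below the highest in 1.5 mM gels, and did not overlap at 96 h, where the nearest libraries of the 2 gels differed little. The log2 difference, 1.5 mM over 1.0 mM, was -0.69 (SE 0.261) at 72 h and -1.53 (SE 0.419) at 96 h. Without replicate 1 in 1.0 mM gels the latter was -0.88. These values rest on 26 to 190 counts per library.

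*Egr3* (14: 70077203 to 70082550, plus strand) showed much the same levels as *Egr2*. Its libraries had 4.92, 4.33 and 2.58 CPM in 1.0 mM and 1.91, 3.43 and 2.68 CPM in 1.5 mM gels for 72 h, and the gels overlapped. At 96 h they had 6.21, 2.77 and 4.26 CPM in 1.0 mM and 1.69, 2.05 and 1.60 CPM in 1.5 mM gels, without overlap. The log2 differences, 1.5 mM over 1.0 mM, were -0.56 (SE 0.293) and -1.31 (SE 0.276). The value at 72 h was -0.79 without replicate 3 in 1.0 mM gels, and without replicate 1 it was -0.37 (left out in 1.0 mM gels) or -0.38 (left out in 1.5 mM gels).

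*Egr4* (6: 85511121 to 85513589, minus strand) was close to the limit of detection, with 83 counts in the 12 libraries together. The counts were 10, 9 and 10 in 1.0 mM and 2, 4 and 4 in 1.5 mM gels for 72 h, and 17, 9 and 12 against 2, 1 and 3 at 96 h. No library in 1.5 mM gels reached a library in 1.0 mM gels of the same embedding time. The summed counts gave a ratio of 1.0 mM over 1.5 mM, scaled for library size, of 2.80 (95% exact interval 1.33 to 6.44) at 72 h and 6.26 (2.62 to 18.1) at 96 h. The intervals cover counting error only. They leave out the spread between replicates, since the counts were summed, and are not a test of the difference between gels. *Egr4* did not pass the filter on low counts in the gel comparisons, so it has no fitted difference there.

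The corepressor genes did not share these differences between gels. *Nab1* (1: 52457294 to 52500679, minus strand) averaged 19.3 ± 2.37 CPM (SD, n = 3) in the softer and 19.0 ± 0.788 CPM in the stiffer gel at 72 h, and 14.3 ± 1.59 against 15.3 ± 1.26 CPM at 96 h. Its log2 differences between gels were -0.02 (SE 0.120) and 0.09 (SE 0.115), and the direction at 72 h changed when replicate 1 in 1.0 mM gels (0.0839) or replicate 2 in 1.5 mM gels (0.00315) was left out. *Nab2* (10: 127660918 to 127668568, minus strand) had 16.2, 18.8 and 18.0 CPM in 1.0 mM and 18.2, 30.4 and 24.5 CPM in 1.5 mM gels at 72 h, a log2 difference of 0.46 (SE 0.170) with overlapping libraries. It was 0.27 without replicate 2 in 1.5 mM gels. At 96 h the *Nab2* difference between gels was -0.03 (SE 0.0919). The *Nab2* locus overlaps annotated genes of the opposite strand, among them *Stat6* and *Nemp1*. The strand setting of the counting is not stated, so reads in the overlaps may not have been separated in the counts. For the FPKM values the methods name a strand-specific setting. The log2 ratio of mean *Nab2* FPKM, 1.5 mM over 1.0 mM, was 0.52 at 72 h and -0.05 at 96 h.

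**Figure D2:**
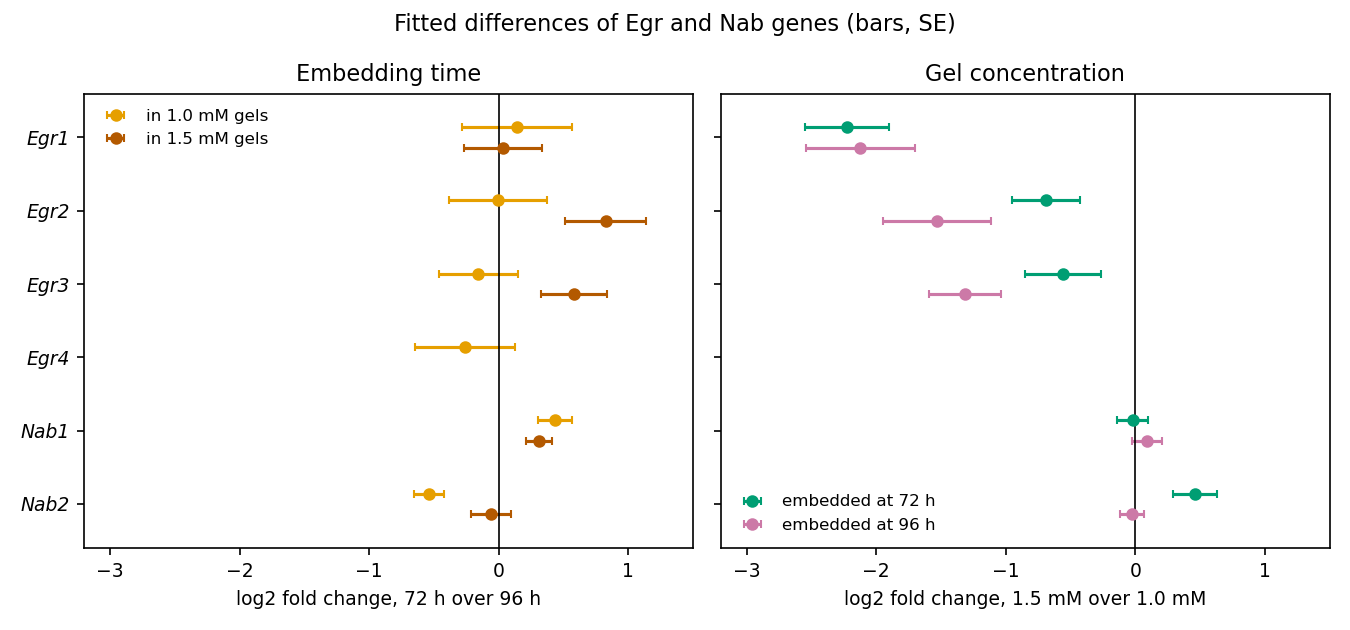
Log2 fold changes (horizontal axes) with SE from edgeR for embedding time, 72 h over 96 h, in each gel (left), and for gel concentration, 1.5 mM over 1.0 mM, at each embedding time (right). *Egr1*, *Egr2* and *Egr3* lie below 0 in the gel comparisons, *Nab1* lies above 0 in both embedding-time comparisons, and *Egr4* is drawn only where it passed the filter on low counts.

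Across all genes tested, 5.11% were lower in 1.5 mM gels without overlap at 72 h and 8.08% at 96 h, against 1 (*Egr1*) and 3 (*Egr1*, *Egr2*, *Egr3*) of the 5 members tested, and 0.97% were so at both times, against 1 of these 5 (*Egr1*). *Egr4* was also lower without overlap at both times but is not counted here, since it did not pass the filter in the gel comparisons and passed in the fit of all 12 libraries through its counts in 1.0 mM gels. The shares higher without overlap were 5.97% and 7.46% (0.982% at both times), against none of the members. These comparisons chose the members, so the shares stand side by side as a description. The median log2 difference between gels of the 5 tested members was -0.56 at 72 h and -1.31 at 96 h, and that of all genes tested was -0.00244 and -0.00465. Over all genes, edgeR called none as differentially expressed (DE, Benjamini-Hochberg adjusted p below 0.05 and absolute log2 fold change above 1) between gels (0.0% at both times). There were 1074 genes (6.9%) with an unadjusted p below 0.05 at 72 h and 1578 (9.95%) at 96 h, and the number DE was 3 and 9 with DESeq2 and 0 at both times with limma-voom.

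FPKM values, which are scaled for transcript length and so allow levels of different genes to be set beside each other, placed *Egr1* above the corepressor *Nab2* in 6 of 6 libraries in 1.0 mM gels and in 1 of 6 libraries in 1.5 mM gels. For early embedding in the softer gel the order of mean FPKM was *Egr1* (19.5 ± 8.92, SD, n = 3), *Nab2* (5.13 ± 0.522), *Nab1* (3.89 ± 0.515), *Egr2* (1.12 ± 0.371), *Egr3* (0.755 ± 0.242) and *Egr4* (0.146 ± 0.0132). The ranges of *Nab2* and *Nab1* did not overlap, whereas those of *Egr2* and *Egr3* did. In the stiffer gel at the same time *Nab2* came first (7.34 ± 2.17 FPKM), followed by *Egr1* (3.94 ± 1.35) and *Nab1* (3.81 ± 0.304), whose ranges overlapped, then *Egr2* (0.661 ± 0.107), *Egr3* (0.513 ± 0.123) and *Egr4* (0.0515 ± 0.0190). The order of the means was the same in 1.0 mM gels after embedding at 96 h, with *Egr1* at 18.0 ± 14.2 and *Nab2* at 7.73 ± 0.767 FPKM, and in 1.5 mM gels, with *Nab2* at 7.47 ± 0.510, *Egr1* at 3.97 ± 1.51 and *Nab1* at 2.99 ± 0.358 FPKM. The log2 ratio of mean *Egr1* FPKM, 1.5 mM over 1.0 mM, was -2.30 at 72 h and -2.18 at 96 h.

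To ask whether the time of embedding altered the family, libraries embedded at 72 h and 96 h were compared within each gel. No member was DE in either gel, that is 0 of 6 tested in 1.0 mM gels, where 4.3% of all genes were DE, and 0 of 5 tested in 1.5 mM gels, where 3.18% were DE. At an unadjusted p below 0.05, 2 of 6 (*Nab1*, *Nab2*) and 3 of 5 members (*Nab1*, *Egr2*, *Egr3*) remained, against 22.9% and 35.1% of all genes. A fit of all 12 libraries with the gel as a covariate gave 2 of 6 (*Nab1*, *Nab2*), against 42.5%. DESeq2 and limma-voom also called no member in either gel. Adjusted p-values in this text are from edgeR with Benjamini-Hochberg adjustment over all genes tested.

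*Nab2* was lower after early embedding in the softer gel, with 16.2 to 18.8 CPM at 72 h against 23.1 to 27.8 CPM at 96 h. The libraries did not overlap, as for 13.8% of all genes in this direction. The log2 fold change was -0.54 (SE 0.115, adjusted p = 0.0140). With the threshold on p alone, 9.24% of all genes passed in this gel (5.97% higher and 3.27% lower at 72 h), and *Nab2* was the 1 member of 6 that did. The adjusted p was 0.0562 without replicate 2 and 0.0736 without replicate 3 of the 96 h group. In 1.5 mM gels *Nab2* had 18.2 to 30.4 CPM at 72 h and 24.4 to 26.1 CPM at 96 h, and the change was -0.06 on the log2 scale (SE 0.154, adjusted p = 0.813). The difference between these time effects, 1.5 mM minus 1.0 mM, was 0.49 (SE 0.203) on the log2 scale and was not tested.

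*Nab1* was higher after early embedding in both gels, with 17.8 to 22.0 CPM at 72 h against 13.0 to 16.1 CPM at 96 h in 1.0 mM gels, and 18.4 to 19.9 against 14.2 to 16.7 CPM in 1.5 mM gels. In neither gel was there an overlap between the times, which 14.6% and 20.0% of all genes shared in this direction. The log2 fold change was 0.43 (SE 0.131, adjusted p = 0.0648) in 1.0 mM and 0.31 (SE 0.0994, adjusted p = 0.0560) in 1.5 mM gels. In the fit of all 12 libraries *Nab1* rose by 0.37 (SE 0.0802, adjusted p = 0.00298), whereas 31.1% of all genes passed the same threshold (16.2% higher and 14.8% lower at 72 h). This was the 1 member of 6 below an adjusted p of 0.05 in that fit, in which 0 of 6 were DE against 4.66% of all genes. The adjusted p of *Nab1* there was 0.0552 when replicate number 1 was left out of every group.

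*Egr1* itself showed no detectable difference between embedding times, with log2 fold changes of 0.14 (SE 0.426, adjusted p = 0.884) in 1.0 mM and 0.03 (SE 0.302, adjusted p = 0.953) in 1.5 mM gels. The spread between replicates was wide relative to these values. In 1.5 mM gels *Egr2* had 2.35 to 2.89 CPM at 72 h and 1.01 to 2.25 CPM at 96 h, without overlap, as 20.0% of all genes in this direction (log2 fold change 0.82, SE 0.313, adjusted p = 0.0932). Replicate 1 of the 96 h group was the *Egr2* library nearest to the 72 h group, and without it the log2 fold change was 1.29 with an adjusted p of 0.0174. *Egr3* was at 0.58 on the log2 scale (SE 0.254, adjusted p = 0.135) in the same gel, and ran from 0.37 (adjusted p = 0.402) without replicate 2 to 0.77 (adjusted p = 0.0377) without replicate 1 of the 72 h group. In 1.0 mM gels *Egr2* was at -0.01 (SE 0.381) and *Egr3* at -0.16 (SE 0.305). *Egr4* was at -0.26 (SE 0.387) in 1.0 mM gels and was not tested in 1.5 mM gels. The libraries of the 96 h group in 1.5 mM gels also entered the gel comparison that chose *Egr2* and *Egr3*.

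Replicate numbers were compared next, because Egr genes can respond to handling. *Egr1* was highest in replicate 1 in 4 of 4 groups, at 1.93-fold and 1.88-fold the mean of replicates 2 and 3 at 72 h (softer gel first) and at 3.38-fold and 1.66-fold at 96 h. Over all genes tested, 6.44% were highest in replicate 1 in all groups, against 3.14% for replicate 2 and 2.37% for replicate 3. *Egr2* was highest in replicate 1 in 3 groups, *Egr3* and *Egr4* in 2 groups (both in 1.0 mM gels), *Nab1* in 1 group and *Nab2* in none, *Nab2* being lowest in replicate 1 in every group. The coefficient of variation within groups ran from 34.8% to 76.6% for *Egr1*, and from 3.41% to 25.0% for *Nab2*. Without replicate number 1 in any group, the log2 difference of *Egr1* between gels was -2.21 at 72 h and -1.56 at 96 h. The labels do not say whether equal numbers mark a shared day or batch, and the part of handling in these levels was not tested.

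Several other immediate-early genes were, like *Egr1*, lower in the stiffer gel. Of 29 listed genes apart from the members, 28 were tested, and 8 (*Fos*, *Fosb*, *Junb*, *Jund*, *Ier2*, *Btg2*, *Arc* and *Maff*) were lower in 1.5 mM gels without overlap at both embedding times, against 0.97% of all genes and with none higher. This became 12 of 28 without replicate number 1, against 5.91% of all genes. The list, like those below, was chosen with earlier results of these data known, so these shares stand side by side as a description. The largest differences were those of the AP-1 genes *Fosb* (log2 difference -3.96, SE 0.874, at 72 h and -3.33, SE 0.666, at 96 h) and *Fos* (-2.82, SE 0.694, and -2.20, SE 0.574). Libraries in 1.0 mM gels ranged from 8.07 to 79.4 CPM of *Fos* at 72 h and from 8.79 to 57.1 CPM at 96 h, whereas those in 1.5 mM gels stayed between 3.77 and 7.46 CPM. The median log2 difference of the list was -0.31 at 72 h, with 24 of 28 genes below 0, and -0.34 at 96 h, with 22 of 28 below 0. Other genes of the list lay near 0, such as *Ier5* (0.01 and 0.05) and *Klf10* (0.08 and 0.02). Replicate 1 was the highest in all groups for 9 of the 28 genes, among them *Fos*, *Fosb*, *Klf2* and *Rhob*.

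**Figure D3:**
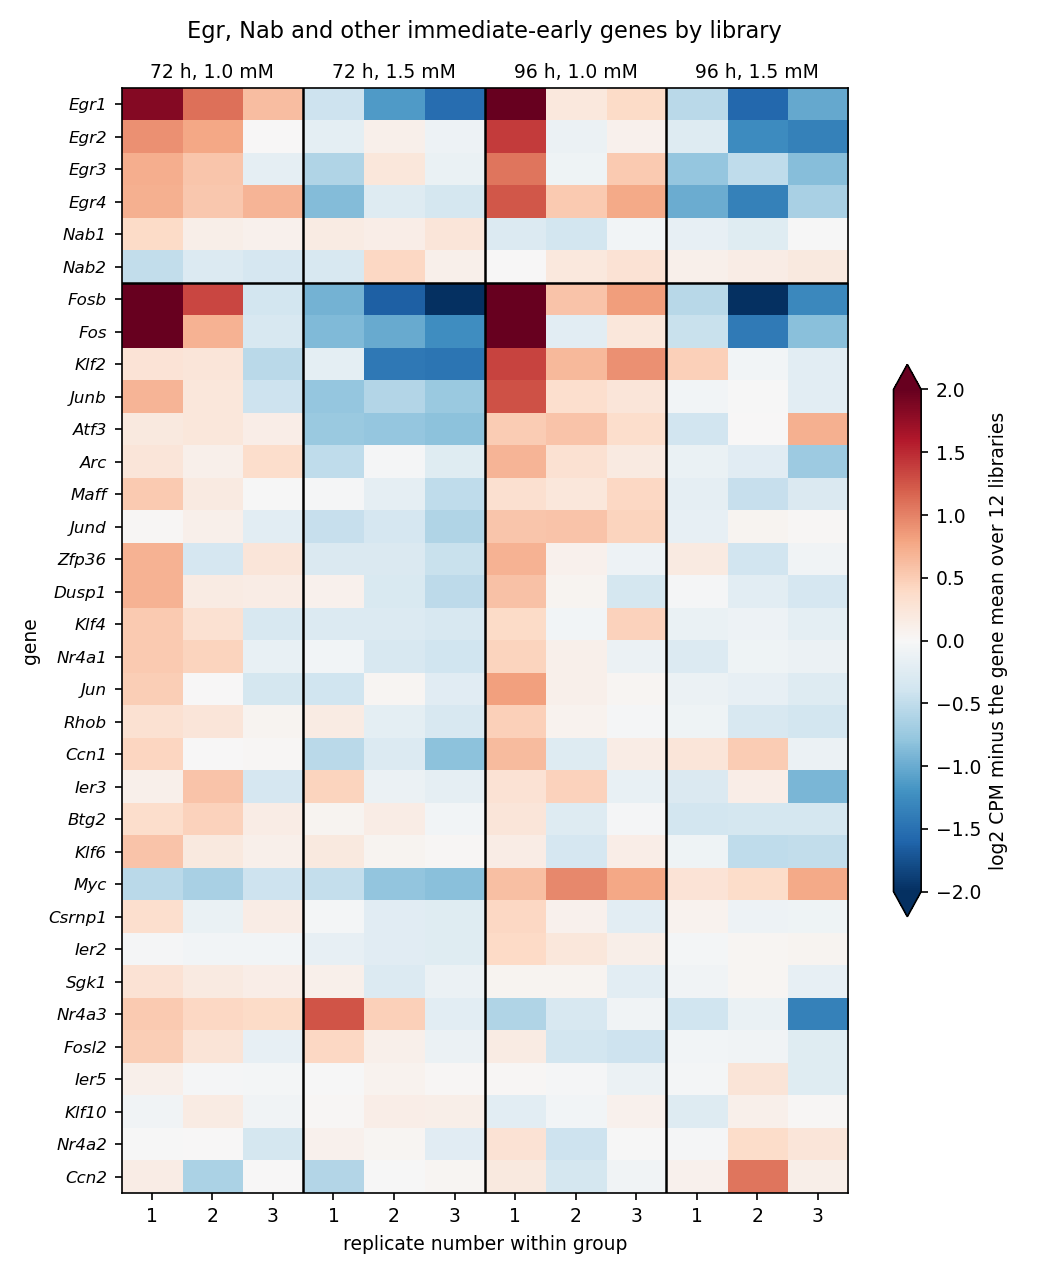
Log2 CPM of the 6 members (upper block) and the 28 tested immediate-early genes (lower block, ordered by their mean gel difference) in the 12 libraries, as the difference from each gene's mean, with colours ending at 2 in either direction. *Egr1*, *Fosb* and *Fos* are deepest red in replicate 1 of both groups in 1.0 mM gels and blue in all libraries in 1.5 mM gels, whereas *Myc* separates by embedding time.

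Between embedding times the immediate-early list differed from the members mainly in *Myc*, a growth regulator, which in 1.0 mM gels was at 23.2 to 27.2 CPM after embedding at 72 h and at 55.0 to 70.5 CPM after 96 h (log2 fold change -1.31, adjusted p = 9.39e-05). In 1.5 mM gels *Myc* was likewise lower at 72 h (-1.18, adjusted p = 0.00235). It was the only DE gene of the 28 within either gel. With the threshold on p alone, 3 genes were lower and none higher at 72 h in 1.0 mM gels, and 6 were lower and 2 higher in 1.5 mM gels, where 19.3% of all genes passed (10.4% higher and 8.98% lower). The list medians of -0.03 and -0.12 stood beside -0.00545 and -0.00515 over all genes.

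Regulators upstream of the family were compared between gels, where 5.11% of all genes were lower without overlap at 72 h and 8.08% at 96 h. Of the 6 genes for SRF and its cofactors, none was lower without overlap at 72 h and only *Srf* was at 96 h (log2 difference -0.22, SE 0.0802), and the list medians were 0.01 and -0.07. Of the 12 ERK feedback genes, which report on ERK activity, none was lower without overlap at 72 h, and 3 (*Dusp4*, *Dusp6* and *Spry1*) were at 96 h, when 10 of 12 were below 0. The log2 difference at 96 h was -0.48 (SE 0.0843) for *Dusp4* and -0.47 (SE 0.0942) for *Dusp6*, whereas the list medians were -0.06 and -0.08. None was lower without overlap at both times, and 3 (*Dusp6*, *Spry1* and *Spry2*) were when replicate number 1 was left out, against 5.91% of all genes. Between embedding times 2 of the 12 genes were DE in each gel, against 4.3% and 3.18% of all genes, namely *Dusp4*, a phosphatase of ERK, and *Spry4*, an inhibitor of receptor signalling, both higher at 72 h. *Dusp4* had log2 fold changes of 1.02 (adjusted p = 0.000161) in 1.0 mM and 1.57 (adjusted p = 8.91e-05) in 1.5 mM gels, and *Spry4* of 1.06 (adjusted p = 0.00169) and 1.21 (adjusted p = 0.00722). No other ERK feedback gene was DE in these comparisons.

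Among FGF ligands and receptors, *Fgf4*, a ligand of early embryos, was DE and lower at 72 h in both gels (log2 fold change -2.42 in 1.0 mM and -2.53 in 1.5 mM gels), *Fgf18*, another ligand, was DE and lower in 1.0 mM gels (-3.33, and -1.49 with adjusted p = 0.0746 in 1.5 mM gels), and the receptor gene *Fgfr3* was DE and higher in 1.0 mM gels (1.67, and 0.37 with adjusted p = 0.361 in 1.5 mM gels). The difference between gels in these effects was not tested. None of the list was lower without overlap between gels at either time. Of 8 heat-shock genes tested, 1 (*Hspa1b*, at 0.355 to 0.490 CPM in 1.5 mM gels) was lower without overlap at 72 h and none at 96 h, and between embedding times none was DE in either gel. The summed level of the heat-shock list was 2050 to 2174 CPM in 1.0 mM and 2154 to 2605 CPM in 1.5 mM gels for 72 h, and 2050 to 2213 and 2085 to 2109 CPM at 96 h.

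**Figure D4:**
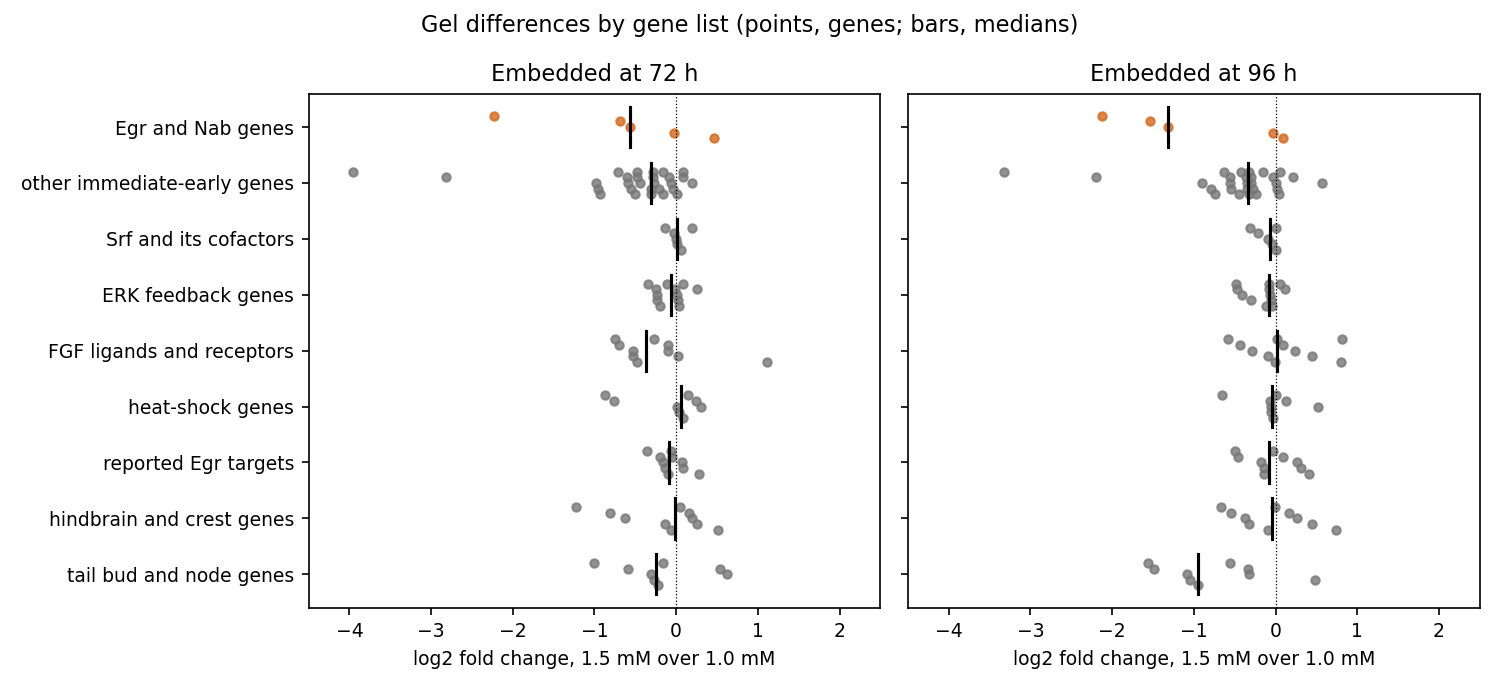
Log2 fold changes between gels, 1.5 mM over 1.0 mM (horizontal axes), of each gene that passed the filter on low counts (points) and the list median (bars), for the members and 8 lists, after embedding at 72 h (left) and 96 h (right). Member medians lie at -0.56 and -1.31, the immediate-early medians at -0.31 and -0.34, and *Fosb*, *Fos* and *Egr1* are, in this order, the leftmost points of both panels.

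Genes reported elsewhere as targets of Egr proteins did not separate by gel as *Egr1* did. Of 10 such genes, all tested, none was lower in 1.5 mM gels without overlap at 72 h, whereas at 96 h *F3* was lower (log2 difference -0.46, SE 0.185) and *Tgfb1* higher (0.32, SE 0.0890) without overlap. The medians were -0.08 and -0.09. Between embedding times none was DE, and *Pdgfa*, a growth factor of mesenchyme, was higher at 72 h in both gels by 0.64 (adjusted p = 0.0156) and 0.70 (adjusted p = 0.0105). For 5 of the 10 genes (*Pdgfa*, *Vegfa*, *Fn1*, *Cd44* and *Mmp14*) replicate 1 was the highest in all groups, as for *Egr1*.

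*Egr2* was set beside genes of the cells it is best known in. Of the Schwann cell markers, *Sox10* had at most 0.163 CPM in any library, and *Mbp*, which other cells also express, had 12.6 to 19.9 CPM. Of the hindbrain markers, *Hoxa2* was DE and lower at 72 h than at 96 h in both gels (log2 fold change -1.39, adjusted p = 0.000249, and -1.15, adjusted p = 0.00227). *Hoxb1* was lower in 1.5 mM gels without overlap at 96 h (log2 difference -0.33, SE 0.130), as *Egr2* was. Of the 4 leukocyte markers *Ptprc* was listed at 0 in all 12 libraries, *Csf1r* and *Cd3e* had at most 0.286 CPM, and *Cd68* made up most of the summed list (6.33 to 12.1 CPM). The summed level of the 4 endothelial markers was 189 to 281 CPM in 1.0 mM and 204 to 303 CPM in 1.5 mM gels for 72 h, and 191 to 222 and 238 to 267 CPM at 96 h, where it was higher in 1.5 mM gels without overlap. Most of this sum was *Kdr*, with 133 to 152 CPM in 1.0 mM and 174 to 188 CPM in 1.5 mM gels at 96 h. *Pecam1*, *Cdh5* and *Tek* overlapped between gels at both times.

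The markers of gastruloids were present, with *T* (Brachyury), a marker of the posterior pole, at 69.2 to 290 CPM, and *Sox2* and *Foxc1*, markers of neural tissue and mesoderm, at 18.0 to 37.5 and 132 to 273 CPM. The tail bud and node genes were lower in 1.5 mM gels at 96 h, with 6 of 9 tested genes lower without overlap, against 8.08% of all genes, and a list median of -0.95 (-0.25 over 8 tested genes at 72 h). Among them, *T* had log2 differences of -0.30 (SE 0.118) and -0.56 (SE 0.121), and *Noto*, a node gene, of -1.01 (SE 0.226) and -1.48 (SE 0.342). This moved with the lower *Egr2* and *Egr3* at 96 h, and its part in their levels was not tested.

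Likeness of pattern was measured by Pearson's r of log2 CPM over the 12 libraries, which share 4 groups, over genes averaging 100 counts or more (11343 genes for *Egr1*), and is given as a description. The genes most like *Egr1* were *Fosb* (r = 0.965), *Rhob* (r = 0.928) and *Fos* (r = 0.927). After subtracting group means, *Atp10d* (r = 0.955), *Plekhg5* (r = 0.954) and *Abcc5* (r = 0.947) came first, and *Fos* had r = 0.881. *Egr2* was most like *1700001L05Rik* (r = 0.904), *Trim46* (r = 0.876) and *Dusp18* (r = 0.876). For the corepressors the most alike genes were *Zfp292* (r = 0.926), *Dync1li1* (r = 0.925) and *Scyl2* (r = 0.921) with *Nab1*, and *Haus7* (r = 0.933), *Hspa8* (r = 0.930) and *Cir1* (r = 0.924) with *Nab2*.

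Among the members, *Egr1* and *Egr2* had r = 0.833 over the libraries and r = 0.813 after subtracting group means, and *Egr2* and *Egr3* had r = 0.874 and r = 0.697. *Egr1* and *Egr3* had r = 0.760, which was r = 0.443 after the group means were subtracted. *Nab2* ran opposite to *Egr1*, with r = -0.561 and, within groups, r = -0.594, whereas *Nab1* had r = 0.0381 with *Egr1*. These values rest on few libraries that share their groups.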

How the data were processed

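Poly-A-selected RNA of gastruloids was sequenced from stranded libraries with paired ends. The authors trimmed reads with cutadapt 4.4, aligned them with STAR 2.7.10b to mm10 using their own edited Ensembl gene models, and deposited gene counts without normalization. The methods name STAR as their source and the deposited table refers to HTSeq. FPKM values were computed by the authors with Cufflinks 2.2.1.3 and deposited for 55138 genes. A further deposited table, which holds the authors' DESeq2 comparisons of group pairs (log2 fold changes, adjusted p-values), was not used. Each library held 23011791 to 27609422 counts. Counting error limits the precision of *Egr4* and, beside the spread between replicates, of *Egr2* and *Egr3*.

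Counts were tested with edgeR 4.0.16 in R 4.3.3 (quasi-likelihood F test, TMM normalization), with the 2 compared groups in each fit, or all 12 libraries with gel concentration as a covariate. The 36 mitochondrial genes were left out, and filterByExpr removed low counts by group (minimum count 10, minimum total 15). SEs were derived from the log2 fold change and its F. CPM used TMM-scaled totals, and likeness of pattern used log2 CPM with a prior count of 2. The procedure was tested on simulated data. Genes named are the 6 members, genes of the lists (those called, those at an extreme and the defining markers) and, for members with a mean of at least 10 counts, the 3 genes of highest r. The genes most like *Egr3* and some genes of the lists are not reported here. Genes named for not overlapping between groups or for staying level, and pairwise r between members, were chosen after their values were seen. The members and lists were chosen with earlier results of these data known. Alternatives were DESeq2 1.42.0, limma-voom (limma 3.58.1), RLE and upper quartile normalization, no filter, a stricter filter (1 CPM in 3 libraries), replicate number as a block, all libraries in 1 fit, mitochondrial genes kept, no fold-change threshold, each library left out, and Spearman's rho for likeness. Leaving out replicate number 1 in every group was added after seeing the data.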

Additional observations from a re-analysis of the deposited data

How the results depend on the processing

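The number of members DE between embedding times was 0 in each comparison and stayed 0 with DESeq2, limma-voom, upper quartile or RLE scaling, the stricter filter or none, and mitochondrial genes kept, as well as with all libraries in 1 fit within each gel. Without a fold-change threshold it was 1 in 1.0 mM gels (*Nab2*) and 1 across both gels (*Nab1*). It was 1 in 1.5 mM gels (*Egr2*) without replicate 1 of the 96 h group, so that leaving out single libraries gave 0 to 1, and 1 without replicate number 1 in every group. Over single libraries left out, the median gel difference ran from -0.79 to -0.37 at 72 h and from -1.67 to -0.88 at 96 h, and without replicate number 1 in every group it was -0.18 and -0.94.

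Directions changed only for differences near 0. For 72 h over 96 h in 1.0 mM gels, *Egr2* was 0.11 with limma-voom, 0.0803 with the replicate block and 0.46 without replicate number 1 in every group. In 1.5 mM gels *Egr1* was -0.00357 with limma-voom and -0.0599 without replicate number 1, and *Nab2* was 0.0805 without it. *Nab1* between gels at 72 h was 0.0931 without it. Leaving out single libraries gave ranges across 0 in 1.0 mM gels for *Egr1* (-0.25 to 0.98), *Egr2* (-0.27 to 0.64), *Egr3* (-0.40 to 0.16) and *Egr4* (-0.42 to 0.00171). The ranges also crossed 0 in 1.5 mM gels for *Egr1* (-0.35 to 0.32) and *Nab2* (-0.24 to 0.11), and across both gels for *Egr1* (-0.11 to 0.48) and *Egr4* (-0.0632 to 0.28). Between gels they crossed 0 for *Nab1* at 72 h (-0.0778 to 0.0839) and *Nab2* at 96 h (-0.10 to 0.0295). The cause was not tested.

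Deviations from group means of same-numbered libraries were all positively correlated, between 0.0439 and 0.302, with 1 of 3 under 0.1 in each pairwise comparison. The numbers were not taken as pairs in the main fits. The low values do not show that an effect shared by equal numbers was absent. Every library correlated best with its own number in 2 of 4 comparisons (embedding times in 1.5 mM gels, gels at 72 h). In the remaining comparisons only replicate 3 did not, and it correlated best with number 2. With the replicate block the number of DE members stayed 0, and the median gel difference was -0.54 at 72 h and -1.27 at 96 h. The block brought *Nab1* to an adjusted p of 0.0396 in 1.0 mM and 0.0382 in 1.5 mM gels, and *Nab2* across both gels to 0.0243. Over all genes, it gave 16 DE between gels at 72 h and 51 at 96 h. The SE of the *Egr1* gel difference was 0.0911 at 72 h and 0.145 at 96 h with the block. Without the block the SEs were 0.326 and 0.420.

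The adjusted p of *Nab1* in 1.0 mM gels was also below 0.05 with DESeq2 (0.0400), no filter (0.0260) and all libraries in 1 fit (0.0279). With Spearman's rho, 2 of the 3 genes most like *Egr1* were the same, but 0 of 3 after subtracting group means (*Fos*, *Mbd1* and *Fosb* came first), 0 of 3 for *Egr2* and 1 of 3 for each of *Nab1* and *Nab2*. Depth limits *Egr4*, for which a few counts decide each value, and adds to the error of *Egr2* and *Egr3*.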
